A study of Homo sapiens with 18 samples.

Results

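Circadian clock genes were followed across 18 mRNA libraries of THESC, a human endometrial stromal cell line immortalised with telomerase. The 10 members are the genes whose symbol in the deposited count table is PER1, PER2, PER3, CRY1, CRY2, CLOCK, NR1D1, NR1D2, DBP or TEF, out of 78724 genes in that table. All 10 were among the 15558 genes that passed the filter on low counts and were tested. The cells were engineered with CRISPR guides in 3 lines: U1U2 cells, labelled with equivalent PGRA and PGRB, promoter cells, labelled PGRB-dominant, and NT cells, which carry a non-targeting guide and are labelled wild type. PGR encodes the progesterone receptor, whose isoforms are PGRA and PGRB. Every line was grown under blasticidin, moved to low-serum medium for a day, and then kept for 72 hours in charcoal-stripped serum with 1 µM medroxyprogesterone acetate (MPA), a synthetic progestin, or with the vehicle, 0.01% ethanol. Each of the 6 groups holds 3 libraries. The labels name neither the number of clones behind a line nor separate cultures behind the replicates, so the p-values measure the spread between these libraries, which may be technical. All 18 libraries carry the same batch label, so no within-batch repeat could be made.

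In the clock, the transcription factors CLOCK and BMAL1 pair and switch on genes through E-boxes, among them the PER and CRY genes, whose proteins return to repress the pair. The nuclear receptors NR1D1 and NR1D2 (REV-ERBα and REV-ERBβ) form another arm by repressing BMAL1. DBP and TEF are output factors that bind D-boxes, and DBP is itself switched on by CLOCK and BMAL1. Stromal cells of the endometrium have such a clock, and PER1 is a known direct target of steroid receptors. MPA binds the progesterone receptor and also the glucocorticoid receptor. Every group was harvested once, so a shift in the phase of the clock and a change in its mean level cannot be told apart. In these bulk libraries, fewer expressing cells and less RNA per cell cannot be told apart either.

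Libraries held between 11.9 and 33.4 M counts (median 22.9 M). CPM are counts scaled to library size with TMM factors, except in sums over marker lists, which were scaled to total counts alone. Summed over the list, the 10 stromal markers reached 9960 to 14848 CPM in every library. PGR, the targeted gene, averaged 260 ± 32.7 CPM with MPA and 596 ± 72.5 CPM with vehicle in U1U2 cells, 282 ± 19.4 and 434 ± 40.1 CPM in promoter cells, and 84.5 ± 9.65 and 140 ± 17.6 CPM in NT cells (SD, n = 3 each). Markers of other cell types summed to far less than the stromal markers, and some moved with MPA. The 6 leukocyte markers summed to 1.50 to 2.39 CPM in MPA libraries, against 3.61 to 5.62 CPM in vehicle libraries. PTPRC was the leukocyte marker that passed the filter, and it fell in U1U2, promoter and NT cells (log2 -1.10, -1.12 and -1.36). The 6 endothelial markers summed to 42.3 to 51.5 CPM with MPA, against 54.7 to 80.5 CPM with vehicle, while the defining markers PECAM1 and CDH5 had at most 4 counts in a library. TEK, the endothelial marker that passed the filter, fell in the same lines (log2 -0.54, -0.78 and -0.35), with the NT call lost with no filter (adjusted p = 0.157) and fitted to the compared groups only (0.0994). The 8 epithelial markers summed to 27.3 to 35.9 CPM with MPA in promoter cells, against 36.2 to 57.2 CPM with vehicle. This narrow gap was seen without TMM factors, which ran from 0.949 to 1.08 in promoter vehicle libraries. In U1U2 cells the epithelial markers summed to 19.5 to 42.3 CPM with MPA and 34.7 to 46.5 CPM with vehicle. In NT cells they summed to 23.5 to 37.1 and 28.9 to 44.2 CPM, so the treatments overlapped in both lines. Of the 5 epithelial markers tested, KRT19 (log2 -1.19, adjusted p = 0.0114) and EPCAM (-1.38, adjusted p = 0.0367) fell in promoter cells, the line with the most clock genes called. There 8.4% of all genes were called lower. KRT19 and EPCAM did not pass in the other lines, where EPCAM had log2 fold changes of -0.86 (U1U2) and -1.29 (NT) and KRT19 -0.70 and -0.78. Not all 5 markers went down: 2 had positive log2 fold changes in promoter cells, 2 in U1U2 and 3 in NT cells. The KRT19 call was lost without promoter MPA replicate 2 (adjusted p = 0.0697), and the EPCAM call without any 1 promoter library other than vehicle replicate 2 (adjusted p 0.0592 to 0.177). The part of these markers in the results was not tested.

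Promoter sequences are shown for the clock gene that rose in every line and for 3 that fell. Each window comes from RefSeq (GRCh38.p14), runs from 250 bases before to 50 bases after a transcription start, and is written 5′ to 3′ along the gene. Capitals mark matches to the E-box CACGTG, the D-box (TTATGTAA or TTACGTAA) or the nuclear receptor half-site AGGTCA, searched on both strands.
PER1, chr17:8152355-8152654, minus strand: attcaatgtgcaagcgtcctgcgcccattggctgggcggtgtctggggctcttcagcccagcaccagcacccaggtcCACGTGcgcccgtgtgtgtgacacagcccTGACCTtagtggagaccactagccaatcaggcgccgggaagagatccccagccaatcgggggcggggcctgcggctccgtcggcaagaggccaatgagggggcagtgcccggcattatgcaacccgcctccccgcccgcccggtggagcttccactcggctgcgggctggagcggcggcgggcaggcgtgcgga
PER3, chr1:7784041-7784340, plus strand: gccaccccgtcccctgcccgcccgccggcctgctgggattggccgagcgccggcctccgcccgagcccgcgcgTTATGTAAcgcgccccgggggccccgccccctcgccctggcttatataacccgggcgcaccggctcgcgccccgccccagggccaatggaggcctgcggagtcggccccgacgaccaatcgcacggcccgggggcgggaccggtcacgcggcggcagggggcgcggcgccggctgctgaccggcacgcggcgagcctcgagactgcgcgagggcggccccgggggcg
NR1D2, chr3:23945871-23946170, plus strand: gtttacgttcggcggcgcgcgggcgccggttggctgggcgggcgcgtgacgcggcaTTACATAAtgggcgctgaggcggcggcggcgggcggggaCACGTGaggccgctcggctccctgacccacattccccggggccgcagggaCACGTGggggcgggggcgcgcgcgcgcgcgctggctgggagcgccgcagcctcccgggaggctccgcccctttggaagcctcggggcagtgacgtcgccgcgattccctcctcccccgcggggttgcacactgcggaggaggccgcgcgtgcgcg
TEF, chr22:41367205-41367504, plus strand: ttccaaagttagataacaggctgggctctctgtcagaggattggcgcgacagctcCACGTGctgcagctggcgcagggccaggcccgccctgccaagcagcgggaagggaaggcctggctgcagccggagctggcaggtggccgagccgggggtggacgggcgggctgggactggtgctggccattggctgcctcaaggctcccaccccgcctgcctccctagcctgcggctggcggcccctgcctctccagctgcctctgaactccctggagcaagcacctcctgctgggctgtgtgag
The PER1 window holds an E-box starting 173 bases before the start and an AGGTCA half-site, read on the other strand, 144 bases before it. PER3, NR1D2 and TEF have 2 windows each, of which a window with a match is shown. The PER3 window shown holds a D-box and its other window none of the motifs. The NR1D2 window shown holds 2 E-boxes and a D-box, and its other window none of the motifs. The TEF window shown holds an E-box, as does its other window. Of the 15 windows of the 10 genes, 4 held an E-box (1 of PER1, 1 of NR1D2 and 2 of TEF), 3 a D-box (PER2, PER3 and NR1D2) and 3 the AGGTCA half-site (1 of PER1 and 2 of CRY2). Among 35116 windows of the same length, 7.26% held the E-box, 1.01% the D-box and 13.8% the AGGTCA half-site. The steroid receptor half-site AGAACA, which 14.8% of all windows held, was found in none of the 15, nor were the cAMP response element TGACGTCA or the full steroid receptor site, which is 2 such half-sites facing each other with 3 bases between them. Of all windows, 1.85% held the cAMP response element and 0.00285% the full site, so their absence from 15 windows says little. A full site would overlap the half-site search, and the other motifs share no letters in these windows. A match is a description of letters, and a missing match says nothing of binding.

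The 10 genes lay at very different levels. To compare genes, CPM were divided by the length of the gene's exons (GENCODE 29). NR1D2 was the most abundant, with a mean of 21.2 CPM per kb over the 18 libraries (14.4 to 34.7), followed by CLOCK with 13.9 (11.7 to 15.7) and CRY1 with 6.75 (6.08 to 7.76). NR1D2 and CLOCK overlapped in range, and CRY1 lay below both in every library. TEF averaged 1.90, CRY2 1.65, PER3 1.36 and PER2 1.24 CPM per kb, and their ranges overlapped. PER1 had a mean of 0.591 CPM per kb (0.117 to 1.42), NR1D1 0.329 (0.114 to 0.664) and DBP 0.0682 (0.0276 to 0.140). DBP rested on 4 to 24 counts per library and NR1D1 on 7 to 51.

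**Figure D1:**
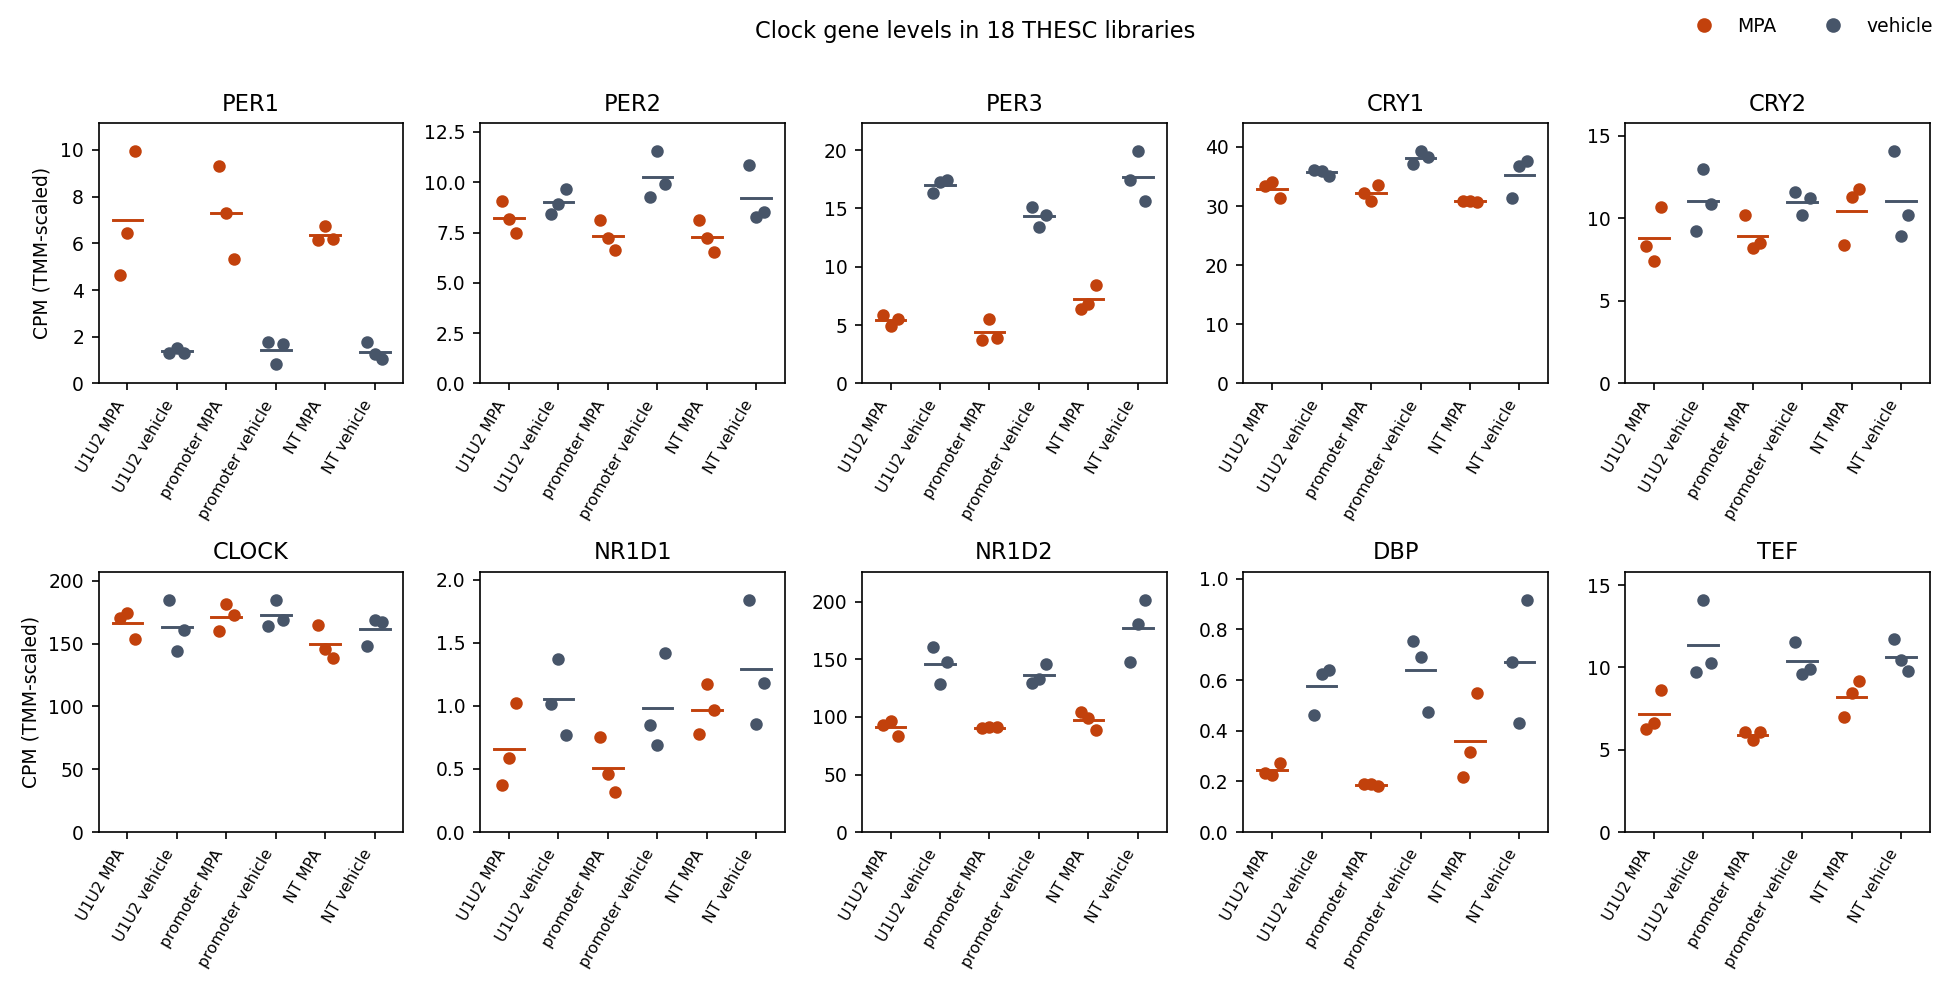
Level of each clock gene in CPM (TMM-scaled, vertical axes from 0) in the 6 groups. Each point is a library, coloured by treatment, and each bar is the mean of 3 libraries. PER1 is high in all 9 MPA libraries, PER3 and NR1D2 are low in them, and CLOCK and CRY2 overlap between treatments in every line.

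Most clock genes that passed the test were lower with MPA, and PER1 was higher. PER1 rose 4.81- to 5.09-fold in the 3 lines, PER3 fell to between 0.305 and 0.405 of its vehicle level, and NR1D2 fell to between 0.551 and 0.665. TEF and DBP passed the test in U1U2 and promoter cells, PER2 and CRY1 in promoter cells, and CRY2, CLOCK and NR1D1 in no line. By edgeR's quasi-likelihood test, at an adjusted p under 0.05 over the 15558 genes, 1 clock gene rose and 4 fell in U1U2 cells, where 11.7% of all tested genes were called (5.44% higher, 6.22% lower). In promoter cells 1 rose and 6 fell, where 15% of all genes were called (6.63% higher, 8.4% lower). In NT cells 1 rose and 2 fell, where 5.93% were called (2.44% higher, 3.48% lower). These counts hold DBP, which passed the low-count filter through its vehicle libraries; of the other 9 clock genes, 3 fell in U1U2 and 5 in promoter cells. The median log2 fold change of the 10 genes, DBP included, was -0.47 in U1U2, -0.53 in promoter and -0.33 in NT cells. Without DBP, the middle value of the other 9 was -0.32 in U1U2 (CRY2), -0.48 in promoter (PER2) and -0.33 in NT cells (PER2). Over all tested genes the medians were 0.03, -0.00 and 0.02 in the same order.

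**Figure D2:**
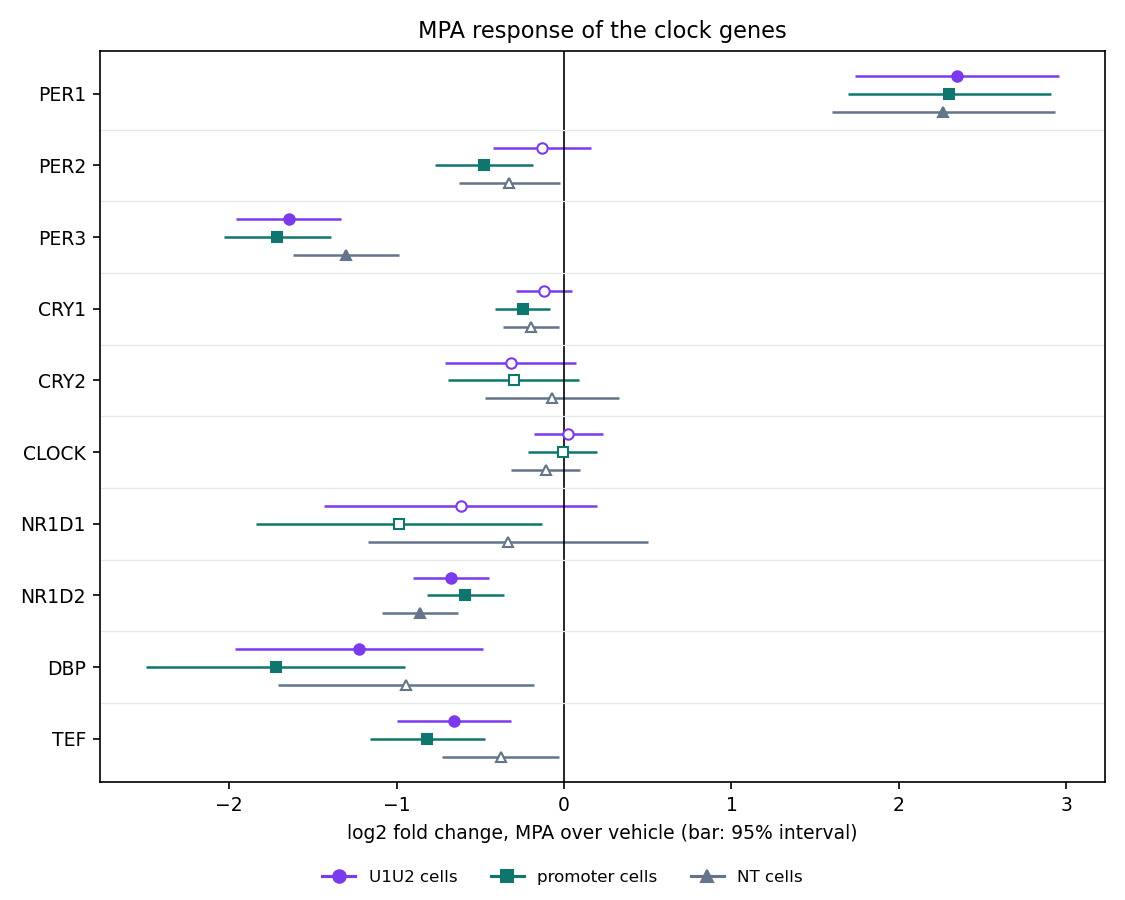
Log2 fold change of each clock gene, MPA over vehicle, in U1U2 cells (circles), promoter cells (squares) and NT cells (triangles), with bars for the 95% interval. Filled symbols have an adjusted p under 0.05 and open symbols do not; PER1 lies to the right of 0 in each line, and PER3 and NR1D2 to the left.

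PER1, a repressor of the CLOCK and BMAL1 pair, lies on chromosome 17 (GRCh38, 8140472 to 8156506, minus strand). In U1U2 cells it had 4.64, 6.43 and 9.95 CPM with MPA, against 1.29, 1.53 and 1.31 CPM with vehicle. Promoter cells had 9.30, 7.30 and 5.33 CPM with MPA, against 1.76, 0.816 and 1.67 CPM with vehicle. In NT cells it had 6.15, 6.73 and 6.19 CPM with MPA, against 1.76, 1.24 and 1.05 CPM with vehicle. Each MPA library exceeded each vehicle library, whatever the line, and the MPA libraries of U1U2 and promoter cells were spread more widely than those of NT cells. Vehicle libraries held 13 to 60 PER1 counts, so the denominator of the fold change is coarse. U1U2 cells had a log2 fold change of 2.35 ± 0.29 (SE, adjusted p = 1.56e-05), promoter cells 2.30 ± 0.29 (adjusted p = 1.36e-05) and NT cells 2.26 ± 0.32 (adjusted p = 0.000121).

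PER3, the third PER gene (chromosome 1, 7784320 to 7845177, plus strand), moved the other way. In U1U2 cells it had 5.86, 4.93 and 5.52 CPM with MPA, against 16.3, 17.2 and 17.5 CPM with vehicle. In promoter cells it had 3.69, 5.48 and 3.93 CPM with MPA, against 15.1, 13.4 and 14.4 CPM with vehicle. In NT cells it had 6.41, 6.80 and 8.46 CPM with MPA, against 17.4, 19.9 and 15.7 CPM with vehicle. No MPA library reached the lowest vehicle library of any line. PER3 had log2 fold changes of -1.64 ± 0.15 (U1U2, adjusted p = 3.41e-07), -1.71 ± 0.15 (promoter, adjusted p = 1.95e-07) and -1.30 ± 0.15 (NT, adjusted p = 1.3e-05). UTS2, which overlaps 868 exon bases of PER3 on the other strand, had 0 counts in every library.

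Because PER1 and PER3 moved in opposite directions, their order per length turned round in most libraries. With MPA, PER1 averaged 1.00 CPM per kb and PER3 0.671 in U1U2 cells, 1.04 and 0.539 in promoter cells, and 0.908 and 0.892 in NT cells. With vehicle, PER1 averaged 0.197 CPM per kb and PER3 2.10 in U1U2 cells, 0.202 and 1.77 in promoter cells, and 0.193 and 2.18 in NT cells. PER1 lay above PER3 in 7 of 9 MPA libraries and in 0 of 9 vehicle libraries. The ratio of PER1 to PER3 ran from 0.846 to 2.92 with MPA and from 0.0706 to 0.134 with vehicle. The MPA libraries with PER1 below PER3 were U1U2 replicate 1 and NT replicate 3.

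**Figure D3:**
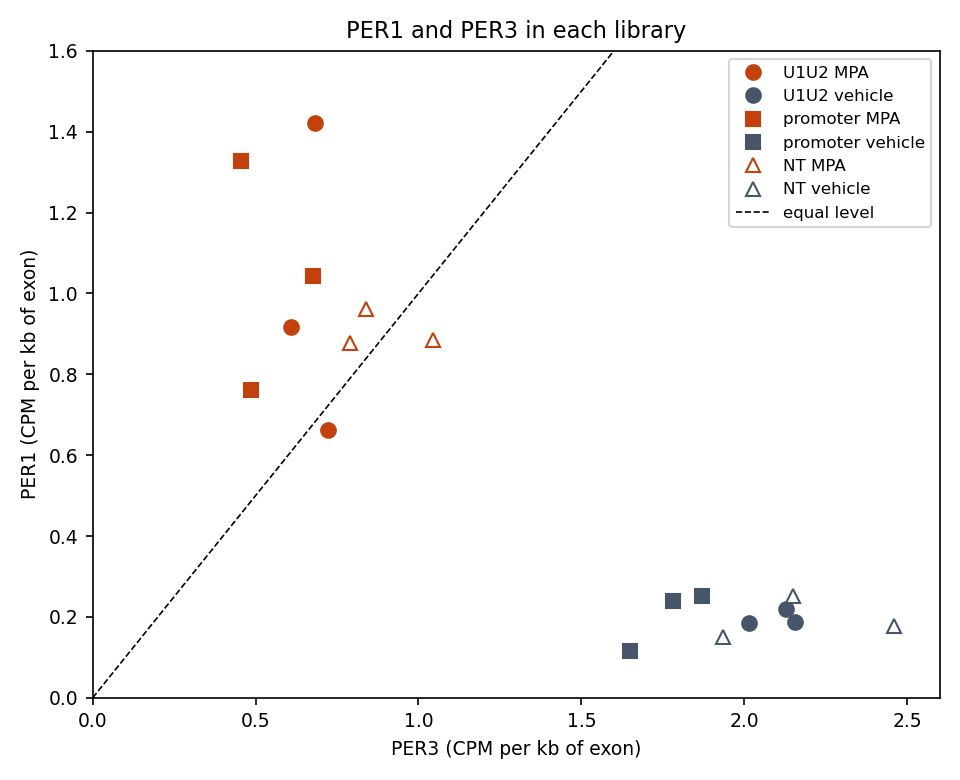
PER1 (vertical axis) against PER3 (horizontal axis) in CPM per kb of exon, 1 point per library. Orange points are MPA and grey points vehicle libraries, with shapes for the lines, and the dashed line marks equal levels. The 9 vehicle libraries lie at the lower right, and 7 of 9 MPA libraries lie above the dashed line.

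PER2, the remaining PER gene (chromosome 2, 238244038 to 238290102, minus strand), showed smaller differences. It averaged 8.23 ± 0.82 CPM with MPA and 9.01 ± 0.61 CPM with vehicle in U1U2 cells (SD, n = 3 each). In promoter cells it averaged 7.32 ± 0.73 CPM with MPA and 10.2 ± 1.17 CPM with vehicle, and in NT cells 7.29 ± 0.81 and 9.23 ± 1.43 CPM. The treatments overlapped in U1U2 cells and were separate in the other lines. PER2 passed the test in promoter cells (log2 fold change -0.48 ± 0.14, adjusted p = 0.0259), while it had log2 fold changes of -0.13 ± 0.14 in U1U2 cells (adjusted p = 0.621) and -0.33 ± 0.14 in NT cells (adjusted p = 0.253). Without promoter MPA replicate 2 or 3, or promoter vehicle replicate 2, the promoter-cell call was lost (adjusted p 0.087 to 0.132).

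CRY1 and CRY2 encode the partners of the PER proteins in repression. CRY1 (chromosome 12, 106991364 to 107093829, minus strand) had 32.1, 30.9 and 33.5 CPM with MPA in promoter cells, against 37.0, 39.3 and 38.2 CPM with vehicle. Its fold change there was small but passed the test (log2 -0.25 ± 0.08, adjusted p = 0.0415), and leaving out any 1 of the 6 libraries ended the call (adjusted p 0.0826 to 0.165). CRY1 had a log2 fold change of -0.12 ± 0.08 in U1U2 cells (adjusted p = 0.4) and -0.20 ± 0.08 in NT cells (adjusted p = 0.205), and in both lines its MPA libraries lay below its vehicle libraries. Without NT vehicle replicate 1, the library with the lowest CRY1 among NT vehicle libraries, CRY1 passed in NT cells too (log2 fold change -0.27, adjusted p = 0.0429). CRY2 (chromosome 11, 45847118 to 45883248, plus strand) averaged 8.82 ± 1.69 CPM with MPA and 11.0 ± 1.88 CPM with vehicle in U1U2 cells. It averaged 8.95 ± 1.07 and 11.0 ± 0.74 CPM in promoter cells, 10.5 ± 1.84 and 11.1 ± 2.68 CPM in NT cells, and passed in no line (adjusted p 0.326 to 0.895).

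CLOCK, the DNA-binding activator (chromosome 4, 55427903 to 55547138, minus strand), stayed within its spread. It averaged 166 ± 10.8 CPM with MPA and 163 ± 20.7 CPM with vehicle in U1U2 cells, 172 ± 10.7 and 172 ± 10.9 CPM in promoter cells, and 150 ± 13.9 and 161 ± 11.3 CPM in NT cells. The 95% intervals of its log2 fold change were -0.18 to 0.23, -0.21 to 0.20 and -0.32 to 0.10 in the same order of lines. Its annotated exons share 76 bases with TMEM165 on the other strand, and TMEM165 itself rose in U1U2 cells (log2 0.39 ± 0.09, adjusted p = 0.00638).

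NR1D2, a repressor of BMAL1 (chromosome 3, 23945260 to 23980618, plus strand), fell in each line. In U1U2 cells it had 92.9, 96.8 and 83.8 CPM with MPA, against 161, 129 and 148 CPM with vehicle. Promoter cells had 90.0, 91.3 and 91.0 CPM with MPA, against 130, 133 and 146 CPM with vehicle. In NT cells it had 105, 99.5 and 88.5 CPM with MPA, against 148, 181 and 202 CPM with vehicle. The treatments did not overlap, and the MPA libraries of the 3 lines lay between 83.8 and 105 CPM while the vehicle libraries ran from 129 to 202 CPM. NR1D2 had log2 fold changes of -0.68 ± 0.11 (U1U2, adjusted p = 0.000241), -0.59 ± 0.11 (promoter, adjusted p = 0.000778) and -0.86 ± 0.11 (NT, adjusted p = 3.81e-05).

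Its paralog NR1D1 (chromosome 17, 40092787 to 40100725, minus strand) had few counts and passed the test in no line. It had 0.375, 0.588 and 1.02 CPM with MPA in U1U2 cells, against 1.01, 1.37 and 0.767 CPM with vehicle, and 0.753, 0.456 and 0.316 CPM with MPA in promoter cells, against 0.849, 0.690 and 1.42 CPM with vehicle. In NT cells NR1D1 had 0.779, 1.17 and 0.963 CPM with MPA, against 1.84, 0.858 and 1.18 CPM with vehicle, and its treatments overlapped in each line. The log2 fold changes were -0.62 ± 0.39, -0.99 ± 0.41 and -0.33 ± 0.40 in U1U2, promoter and NT cells, with adjusted p = 0.37, 0.12 and 0.728. NR1D1 shares 263 exon bases with THRA, which runs on the other strand and had 294 to 952 counts per library. Because the counter's strand setting is not given in the sources used here, reads of the pair cannot be told apart.

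The output factor TEF (chromosome 22, 41367333 to 41399326, plus strand) was lower with MPA in every line. In U1U2 cells it had 6.28, 6.65 and 8.66 CPM with MPA, against 9.72, 14.1 and 10.3 CPM with vehicle. In promoter cells it had 6.06, 5.59 and 6.05 CPM with MPA, against 11.6, 9.60 and 9.94 CPM with vehicle. In NT cells it had 6.97, 8.47 and 9.15 CPM with MPA, against 11.7, 10.5 and 9.76 CPM with vehicle. No MPA library reached a vehicle library of its line, and the gap was narrowest in NT cells. TEF passed in U1U2 cells (log2 fold change -0.66 ± 0.16, adjusted p = 0.0103) and promoter cells (-0.82 ± 0.16, adjusted p = 0.00172), while in NT cells it was -0.38 ± 0.16 (adjusted p = 0.247). The U1U2 call was lost without U1U2 vehicle replicate 2 or U1U2 MPA replicate 1 or 2 (adjusted p 0.0501 to 0.0825).

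DBP (chromosome 19, 48630030 to 48637438, minus strand) had 0.234, 0.226 and 0.273 CPM with MPA in U1U2 cells, against 0.461, 0.625 and 0.639 CPM with vehicle. Promoter cells had 0.188, 0.190 and 0.181 CPM with MPA, against 0.754, 0.690 and 0.473 CPM with vehicle. In NT cells it had 0.216, 0.316 and 0.550 CPM with MPA, against 0.669, 0.429 and 0.917 CPM with vehicle. The treatments were separate in U1U2 and promoter cells and overlapped in NT cells. DBP passed in promoter cells (log2 fold change -1.72 ± 0.37, adjusted p = 0.0029) and in U1U2 cells (-1.22 ± 0.35, adjusted p = 0.0287), and was -0.94 ± 0.36 in NT cells (adjusted p = 0.172). The U1U2 call was lost with no filter, in DESeq2 (adjusted p = 0.1) and without each U1U2 library other than vehicle replicate 1 (adjusted p 0.0653 to 0.103). DBP passed the low-count filter through its vehicle libraries: 8 of 9 vehicle libraries and 1 of 9 MPA libraries reached the required 0.437 CPM, so its calls add no weight to any count of clock genes. It shares 661 exon bases with SPHK2 on the other strand, which had 9 to 67 counts and log2 fold changes of 0.70, 0.03 and 0.73 in U1U2, promoter and NT cells, none of them called. As for NR1D1 and THRA, the gene to which reads over the bases shared by DBP and SPHK2 were counted is not known.

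Separation of the libraries gave a similar picture. The MPA and vehicle libraries did not overlap for 6 of the 10 clock genes in U1U2 cells, where this held for 23.8% of all tested genes. They did not overlap for 7 in promoter cells (35.7% of all genes) and 6 in NT cells (19.3% of all genes). Without DBP, the counts were 5 of 9 in U1U2, 6 of 9 in promoter and 6 of 9 in NT cells. Tested over all 6 groups at once, 5 clock genes differed (PER1, PER3, NR1D2, DBP and TEF, adjusted p 8.5e-09 to 0.00346), where 19.9% of all genes did, and 4 of 9 differed without DBP. Adjusted p was 0.0565 for CRY1, 0.0773 for PER2, 0.215 for NR1D1, 0.519 for CRY2 and 0.581 for CLOCK.

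Between lines within a treatment, few clock genes passed the test. With vehicle, 0 of 10 were called between U1U2 and NT cells by edgeR, where 1.14% of all genes were called. There 1 clock gene had an unadjusted p under 0.05, and DESeq2 called 0 of the 9 it tested. Between promoter and U1U2 cells with vehicle, 0 were called (0.784% of all genes), with 0 at an unadjusted p under 0.05 and 0 of the 9 tested by DESeq2. Between promoter and NT cells with vehicle, 1 was called (6.75% of all genes): NR1D2 had 130, 133 and 146 CPM in promoter cells, against 148, 181 and 202 CPM in NT cells. The log2 difference was -0.38 ± 0.11 (adjusted p = 0.0434), and the call was lost without NT vehicle replicate 2 or 3 or promoter vehicle replicate 1 or 2 (adjusted p 0.129 to 0.215).

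With MPA, 0 clock genes were called between U1U2 and NT cells (1.72% of all genes), with 1 at an unadjusted p under 0.05 and 0 of the 9 tested by DESeq2. Between promoter and U1U2 cells with MPA, 0 were called (0.328% of all genes), with 0 at an unadjusted p under 0.05 and 0 by DESeq2. Between promoter and NT cells with MPA, 1 was called (4.15% of all genes): PER3 had 3.69, 5.48 and 3.93 CPM in promoter cells, against 6.41, 6.80 and 8.46 CPM in NT cells. Its log2 difference was -0.71 ± 0.16 (adjusted p = 0.0105). Without NT MPA replicate 3 or promoter MPA replicate 1 or 3 the adjusted p was 0.0626 to 0.0829.

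The difference of the MPA responses was tested directly for each pair of lines, which all share their vehicle and MPA groups with the contrasts above. By edgeR, 0 of 10 clock genes were called for U1U2 minus NT (0.219% of all genes), 0 for promoter minus NT (1.56% of all genes), and 0 between the promoter and U1U2 responses (0.0129% of all genes). At an unadjusted p under 0.05 the count was 0 for each pair, as it was by DESeq2 at its adjusted threshold. The difference in the PER1 response was 0.08 ± 0.44 for U1U2 minus NT (95% interval -0.84 to 1.00), 0.04 ± 0.44 for promoter minus NT (-0.89 to 0.97) and, on the same log2 scale, -0.05 ± 0.40 for promoter minus U1U2 (-0.90 to 0.81). For PER3 the differences were -0.34 (-0.78 to 0.10), -0.41 (-0.85 to 0.03) and -0.07 (-0.51 to 0.37) in the same order. The intervals hold differences of either sign, so a missed threshold does not show equal responses. A gene called in one line and not in another, such as TEF or DBP, was thus not shown to differ between lines.

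**Figure D4:**
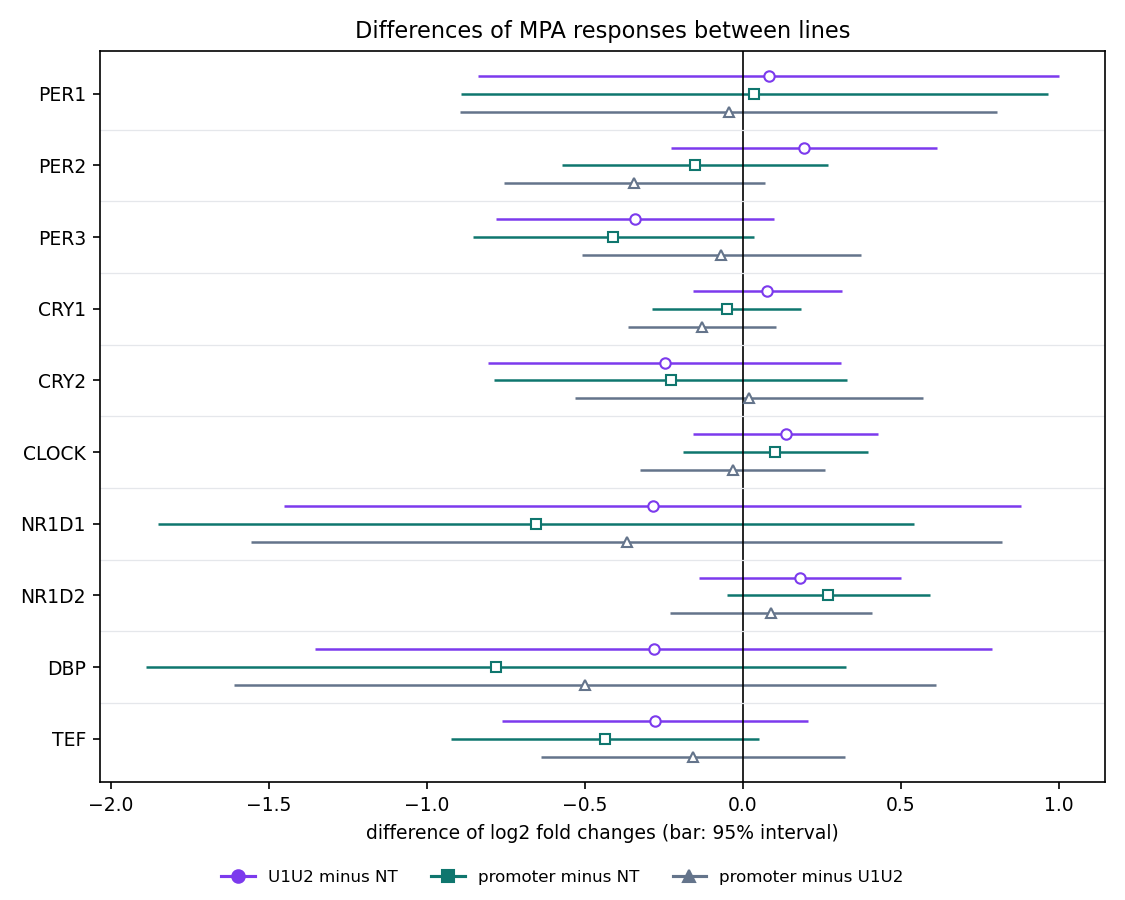
Difference of the log2 MPA response between lines for each clock gene (horizontal axis), as U1U2 minus NT (circles), promoter minus NT (squares) and promoter minus U1U2 (triangles), with 95% intervals. All symbols are open because none has an adjusted p under 0.05, and each interval crosses 0.

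Beyond the members, 35 other genes of the clock pathway were compared, of which 28 were tested. MPA raised 5 and lowered 4 of them in U1U2 cells, where 5.44% of all genes were called higher and 6.22% lower. It raised 7 and lowered 5 in promoter cells (6.63% and 8.4% of all genes), and raised 2 and lowered 2 in NT cells (2.44% and 3.48%). Without RORB, which passed the low-count filter through its MPA libraries, 4 of 27 rose in U1U2 cells and 6 of 27 in promoter cells. Over all 28, RORB included, the median log2 fold changes were -0.04 in U1U2, -0.02 in promoter and -0.04 in NT cells. Over all tested genes they were 0.03, -0.00 and 0.02. BMAL1, the partner of CLOCK, averaged 24.7 ± 1.05 CPM with MPA and 17.3 ± 1.19 CPM with vehicle in U1U2 cells, and 26.0 ± 0.77 and 18.2 ± 1.82 CPM in promoter cells. It rose in both (log2 0.52 ± 0.10, adjusted p = 0.00124, and 0.51 ± 0.10, adjusted p = 0.00111), and was 0.26 ± 0.10 in NT cells (adjusted p = 0.172). NPAS2, a paralog of CLOCK, rose in U1U2 (log2 0.67 ± 0.09) and promoter cells (0.90 ± 0.09) and was not called in NT cells. BMAL2, a paralog of BMAL1, fell in U1U2 (-0.46 ± 0.09), promoter (-0.77 ± 0.09) and NT cells (-0.32 ± 0.09).

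Among the repressors on E-boxes and D-boxes, BHLHE41 fell in U1U2, promoter and NT cells (log2 -0.65, -0.66 and -0.77, SE 0.14 each). CIART, a repressor of the CLOCK and BMAL1 pair, fell in U1U2 (-1.11 ± 0.17) and promoter cells (-1.20 ± 0.17) and was -0.56 ± 0.17 in NT cells (adjusted p = 0.0644). NFIL3, which competes with DBP and TEF at D-boxes, rose in U1U2, promoter and NT cells (0.31, 0.59 and 0.44, SE 0.09 each), with the U1U2 call lost without any 1 of 5 of its 6 libraries. KLF9, a steroid-induced factor, rose in U1U2 (0.68 ± 0.13) and promoter cells (0.74 ± 0.13), and WEE1, a clock-controlled cell cycle kinase, fell in both (-0.51 ± 0.14 and -0.76 ± 0.14). KLF9 and WEE1 were not called in NT cells, and neither was called for a difference of MPA responses between lines. The remaining calls were NCOA3 (promoter 0.38, NT 0.31) and CSNK1A1 (promoter 0.35), which rose, and NOCT (promoter -0.50), which fell. The calls of NOCT in promoter cells, of WEE1 in U1U2 cells, and of NCOA3 and BMAL2 in NT cells were each lost without at least 1 library of the comparison.

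RORB, an activator of BMAL1 and rival of NR1D2 at its sites, had almost no counts outside MPA-treated U1U2 and promoter cells. It had 31, 29 and 45 counts with MPA in U1U2 cells, against 0, 1 and 1 with vehicle, a CPM ratio of the summed counts of 61.3 (95% counting interval 16.6 to 513). In promoter cells it had 304, 262 and 194 counts with MPA, against 2, 1 and 3 with vehicle, a ratio of 141 (64.6 to 386). In NT cells it had 1, 4 and 2 counts with MPA, against 2, 2 and 1 with vehicle, a ratio of 0.974 (0.266 to 3.89). RORB passed the low-count filter through 6 MPA libraries and 0 vehicle libraries, and the intervals cover counting error only.

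**Figure D5:**
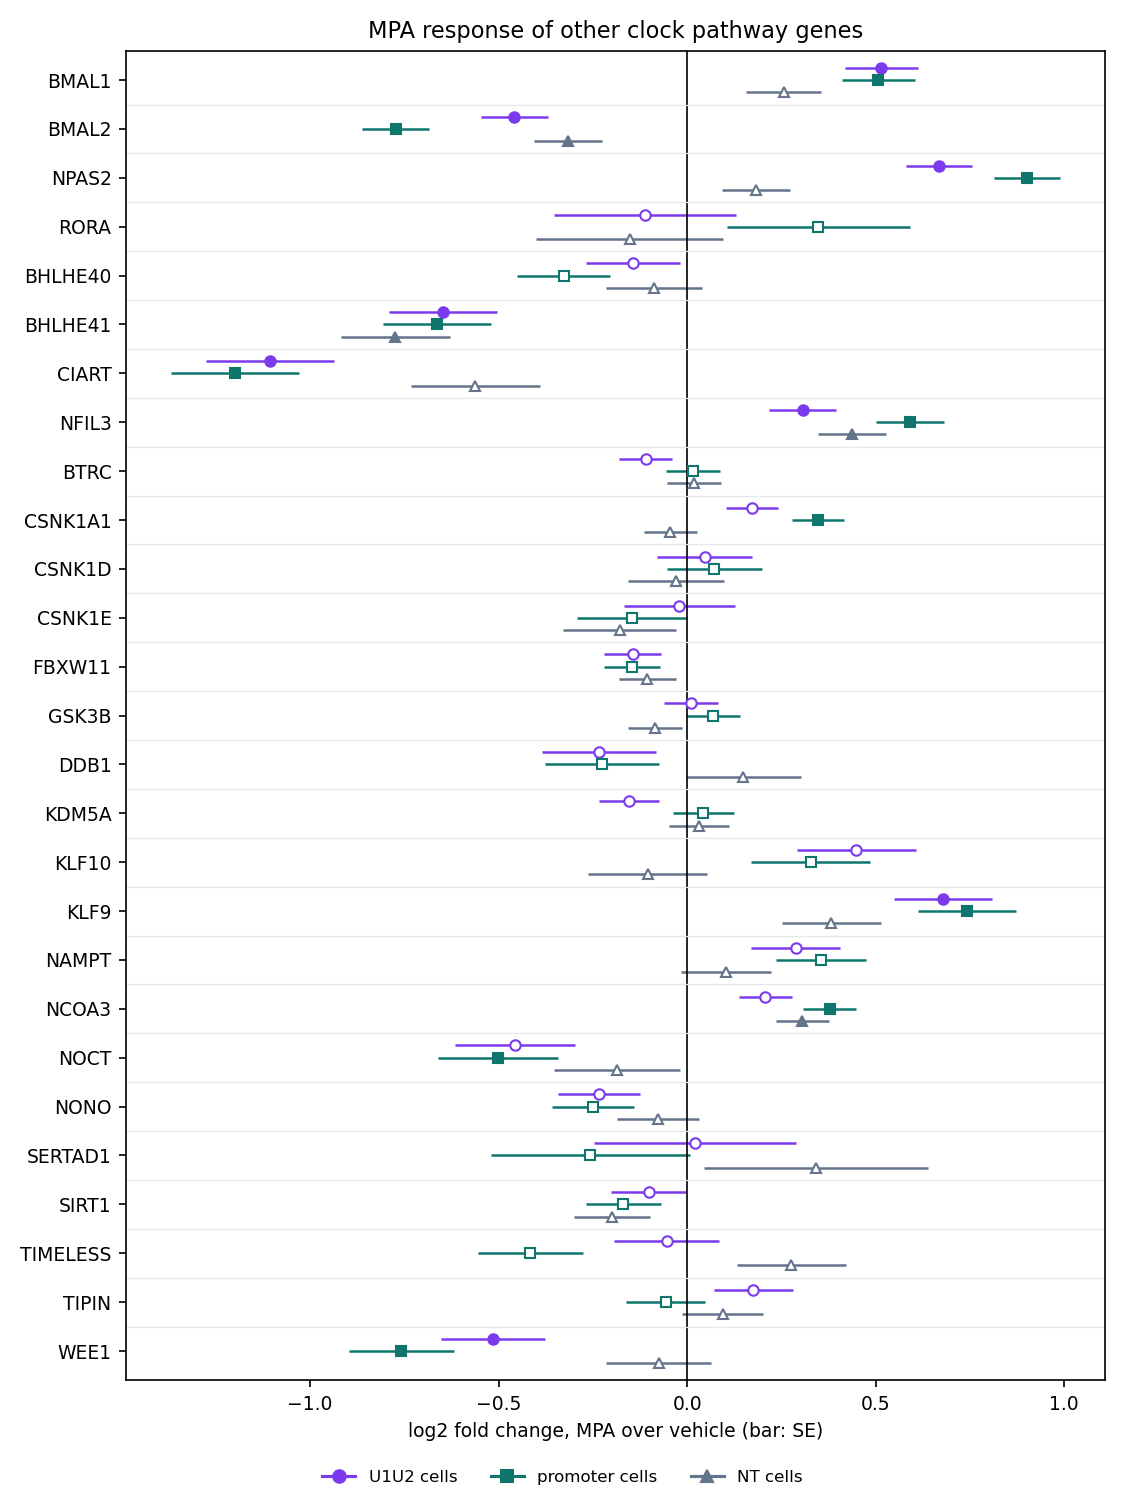
Log2 fold change, MPA over vehicle, of 27 other clock pathway genes in U1U2 cells (circles), promoter cells (squares) and NT cells (triangles), with bars for the SE. Filled symbols have an adjusted p under 0.05; RORB is left out because its vehicle counts are near 0.

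Immediate early genes were listed because PER1 can respond like one. Of 20 tested, 6 rose and 0 fell with MPA in U1U2 cells (5.44% and 6.22% of all genes), 4 rose and 1 fell in promoter cells (6.63% and 8.4%), and 1 rose and 2 fell in NT cells (2.44% and 3.48%). FOS rose in U1U2 (log2 2.61 ± 0.26) and promoter cells (2.10 ± 0.27) and was -0.25 ± 0.38 in NT cells (adjusted p = 0.812), with 4 to 17 counts per NT library. Whether the PER1 rise was an immediate early response was not tested. FKBP5 and TSC22D3, known targets of steroid receptors, rose in U1U2, promoter and NT cells (log2 3.46, 4.07 and 2.89 for FKBP5, and 1.47, 1.47 and 1.74 for TSC22D3). NR3C1, the gene of the glucocorticoid receptor, averaged 234 ± 17.8 CPM with MPA and 281 ± 11.6 CPM with vehicle in U1U2 cells, 227 ± 7.93 and 259 ± 18.1 CPM in promoter cells, and 256 ± 16.5 and 322 ± 12.7 CPM in NT cells. The part of either receptor in the PER1 response was not tested.

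For each clock gene called with MPA in any line, the 3 genes with the most similar pattern were found by the root mean square (RMS) difference of centred log2 CPM over the 18 libraries. PER1 itself varied by an RMS of 1.17, and the genes nearest to it were C5AR2 (0.39), ERRFI1 (0.39) and MYOSLID (0.40). C5AR2 lay near 0 with vehicle, at 0.328 CPM with MPA and 0.0107 CPM with vehicle in U1U2 cells. It passed the low-count filter through MPA libraries alone, and the prior count of 2 damps log2 CPM near 0. Its fitted log2 fold change was 4.35 ± 0.81 in U1U2 cells, against 2.35 for PER1, so the likeness is no sign of an equal response. PER3 varied by 0.82, and NRG1 (0.13), SAMD12 (0.18) and SEMA3A (0.22) were nearest. NR1D2 varied by 0.39, with MOSPD1 (0.10), SYT14 (0.13) and PLCB1 (0.13) nearest. TEF varied by 0.37, with LRRC32 (0.12), ARMC9 (0.14) and PIR (0.14) nearest, and DBP by 0.63, with PAMR1 (0.24), PPM1H (0.24) and LRRC17 (0.26) nearest. For PER2, which varied by 0.22, the nearest genes (TIFA, DAB2 and RIN2) still differed by 0.13 to 0.14, and for CRY1, which varied by 0.12, NANP, AVL9 and STARD13 differed by 0.05 to 0.06. The pattern of PER3 was thus matched closely in relation to its own variation and that of PER2 was not.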

How the data were processed

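Total RNA was column-purified and made into stranded poly(A) libraries, per the labels' protocols. The authors deposited whole-number read counts for each gene, together with log2 CPM values of 10402 genes. STAR 2.6.0c, edgeR 4.2.2, R 4.4.1 and hg38 are named, per the submitters' processing notes; their roles, the annotation, and the read counter with its strand setting are not given in the sources used here. Values in the deposited log2 CPM table, which holds 8 of the 10 clock genes, lay within 5e-09 of edgeR's log2 CPM from these counts (TMM, prior count 2), and entered no test.

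The deposited counts were analysed in R 4.3.3 with edgeR 4.0.16: filterByExpr (minimum count 10), TMM factors, and a quasi-likelihood fit over all 18 libraries with 1 term per group (common biological coefficient of variation 0.129). From it came 12 contrasts and a test over all 6 groups, with Benjamini-Hochberg adjustment over 15558 genes. Every adjusted p printed is from this test unless DESeq2 (1.42.0) is named. Of all genes, 35997 carry no symbol but have an identifier and stayed in. Replicates of a group differed beyond sampling noise (chi-square per degree of freedom 1.95 to 34.9). Alternatives were RLE size factors, DESeq2, no filter, a minimum count of 20, a replicate block, a fit to the compared groups only, and leaving out each library. The fit was tested on simulated counts. Named genes are the clock genes, the listed pathway, immediate early, steroid target and receptor genes, the 3 nearest patterns, and overlapping genes. 1 listed gene is not reported here and is in none of the list counts. The members and lists were chosen with earlier results of these data known. Coordinates are GRCh38 (GENCODE 29).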

Additional observations from a re-analysis of the deposited data

Results flagged for a closer look

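Outside the 10 clock genes, the MPA response differed between lines for some other listed genes. The difference itself was tested (edgeR, log2 scale, 3 libraries in each of the 4 groups). For U1U2 minus NT, 1 of 28 other clock pathway genes and 1 of 20 immediate early genes were called (0.219% of all genes). For promoter minus NT, 2 of 28 and 2 of 20 were called (1.56% of all genes), and 1 of 4 steroid target and receptor genes. Of the cell type markers, 1 of 10 stromal, 0 of 5 epithelial, 1 of 1 endothelial and 0 of 1 leukocyte were called there. RORB is in both pathway counts but passed the low-count filter through MPA libraries, so it adds no weight to them. For RORB the fitted difference was 5.69 for U1U2 minus NT (adjusted p = 0.00731) and 7.08 for promoter minus NT (adjusted p = 0.000224); with 2 to 6 summed vehicle counts these values depend on the prior count and are no bound. The U1U2 call of RORB was lost without NT vehicle replicate 1 or 2 (adjusted p 0.0754 and 0.0834). For FOS the difference was 2.86 for U1U2 minus NT (adjusted p = 0.0156) and 2.35 for promoter minus NT (adjusted p = 0.015), and without NT vehicle replicate 2 the adjusted p was 0.153 and 0.13. The FOS calls were also lost without NT vehicle replicate 3 for U1U2 (0.0561) and without promoter vehicle replicate 1 for promoter cells (0.0519). For promoter minus NT, NPAS2 differed by 0.72 (adjusted p = 0.00536), FKBP5 by 1.18 (adjusted p = 0.00013) and NR4A3, an immediate early gene that fell in NT cells, by 1.11 (adjusted p = 0.0476). The NR4A3 call was lost in DESeq2 (adjusted p = 0.0537) and without each of 11 of the 12 libraries, the other being NT vehicle replicate 1. HAND2, a stromal marker, differed by 1.41 for promoter minus NT (adjusted p = 0.0138) and kept its call without any 1 of the 12 libraries. TEK, an endothelial marker, differed by -0.43 (adjusted p = 0.0335), and its call was lost with no filter (0.185), with the replicate block (0.0773), fitted to the compared groups only (0.0542) and without each of 11 of the 12 libraries (0.0591 to 0.13), the other being NT vehicle replicate 1.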

How the results depend on the processing

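PER1, PER3 and NR1D2 kept their direction and their call with MPA in all 3 lines under each alternative run. Fitted to the compared groups only, the clock genes called fell to 3 for MPA in U1U2 cells (DBP and TEF lost), 0 for promoter against NT cells in vehicle and 0 for promoter against NT cells in MPA. The vehicle count was also 0 with no filter and with the replicate block. Leaving out 1 library gave 3 to 5 called clock genes for MPA in U1U2 cells, 0 to 1 for promoter against NT cells in vehicle and 0 to 1 in MPA. Signs turned only for uncalled genes: over the left-out libraries the log2 fold change ran from -0.22 to 0.13 for CRY2 in NT cells, from -0.063 to 0.12 for CLOCK in U1U2 cells and from -0.051 to 0.044 for CLOCK in promoter cells. Replicate numbers did not pair the libraries: 5 of 27 same-numbered pairs correlated above 0.1 (range -0.47 to 0.20). In promoter cells the replicate block left 6 clock genes called with MPA and RLE factors likewise lost CRY1; no filter lost CRY1 and PER2 and added NR1D1 (adjusted p = 0.0482). With a minimum count of 20, DBP was not tested. Over all genes, calls with MPA were 491 in NT cells when fitted alone against 922, and 1049 against 1814 in U1U2 cells. For U1U2 against NT cells in vehicle they were 178, against 808 with no filter, 473 by DESeq2, 62 with the block and 4 fitted alone. They were 1050 for promoter against NT cells in vehicle (435 alone), 122 for promoter against U1U2 cells in vehicle (265 by DESeq2, 69 with the block, 11 alone), 268 for U1U2 against NT cells in MPA (85 alone) and 51 for promoter against U1U2 cells in MPA (88, 25 and 16). For the differences of responses they were 34 for U1U2 minus NT (123 by DESeq2, 281 with no filter, 12 with the block, 8 alone), 242 for promoter minus NT (458, 758 and 150 in the same order) and 2 for promoter minus U1U2 (58 by DESeq2, 18 with no filter, 5 at a minimum count of 20, 0 with the block or alone). Leaving out 1 library also moved these counts: to 612 for MPA in NT cells (without NT vehicle replicate 2), 23 to 639 for U1U2 against NT cells in vehicle (the highest without U1U2 vehicle replicate 1, the lowest without NT vehicle replicate 2), 472 to 1347 for promoter against NT cells in vehicle (522 without NT vehicle replicate 2, 472 without promoter vehicle replicate 1) and 39 to 64 for promoter against U1U2 cells in vehicle, whichever library was left out. In MPA they were 154 to 214 for U1U2 against NT cells, 390 to 490 for promoter against NT cells (645 with all libraries) and 15 to 40 for promoter against U1U2 cells. For the differences of responses they were 8 to 47 for U1U2 minus NT, 116 to 271 for promoter minus NT and 0 to 3 for promoter minus U1U2. The shares of all genes set beside the clock genes move with these counts. The causes were not tested. Depth limits DBP and NR1D1, with 4 to 51 counts per library.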
